A study of Mus musculus with 20 samples.

Results

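Microglia from the libraries labelled as cortex of 2-month-old mice were compared between mice carrying the BRAF V600E mutation and control mice. The members are the 2-month columns of the count table with an even running number, whose titles name cortex, and they are 6 of the 20 RNA-seq libraries of the series. Genotype was read from the mouse number in each column name, looked up in the sample titles. This gave 3 mutant mice, M2617, M2621 and M2624, and 3 control mice, M2618, M2629 and M2633, with 1 cortex-labelled library per mouse. The other 14 libraries are brainstem-labelled libraries of the same 6 mice and libraries of both regions from 4 end-stage mice.

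All 6 mice at 2 months carried 1 copy of Cx3cr1-CreER (CX3 HET), a tamoxifen-dependent Cre expressed under a gene of microglia and other myeloid cells. The mutants also carried Braf LSL-V600E (Braf VE; CX3 HET), an allele that Cre switches on, and the controls were Braf WT; CX3 HET. Pregnant females received 37.5 mg per kg of 4-hydroxytamoxifen once, at embryonic day 9.5, which was meant to reach the early yolk sac progenitors from which microglia arise. The sources used here do not give the share of cells with the recombined allele. Gene counts do not read the V600E base, so the mutant allele itself could not be checked. In these bulk samples fewer cells of a type and less RNA per cell cannot be told apart. The end-stage mutants, M1376 and M1524, had the genotype Braf VE; CX3 HET. The end-stage controls were 1 Braf VE; CX3 WT mouse (M1375), which has the allele without the Cre, and 1 Braf WT; CX3 HET mouse (M1521).

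The genotypes rest on a choice between conflicting labels. The mouse number in the record's title differed from that in the name of its count column for 5 of the 6 mice, and the genotype written in the record's title differed from the one used here for 4, M2617, M2618, M2621 and M2633. M2624 (mutant) and M2629 (control) had the same genotype under either reading. With genotype taken from the record, 1 gene passed the test, and that result is given as a check after the main comparison. No reading was chosen from the expression values.

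BRAF is a kinase of the RAS-RAF-MEK-ERK cascade, and the V600E form signals without an upstream RAS input. Microglia are the resident macrophages of the brain. In their resting, homeostatic state they express receptors such as P2RY12 that sense nucleotides released by neighbouring cells. When activated they can lower these receptors, raise lysosomal, lipid and complement genes, divide, or turn on interferon-stimulated genes. Type I interferon signals through a complex with STAT2 and IRF9, which binds a DNA element of repeated GAAA units called the interferon-stimulated response element (ISRE).

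The libraries held about 14839700 to 18879000 counts in controls and about 16868700 to 21020200 counts in mutants, and 3 counts, the most that a count of 0 allows, were 0.150 to 0.198 CPM (count divided by the TMM-scaled library size, times 1e6). Mitochondrial transcripts took 0.138 to 0.192% of counts in controls and 0.226 to 0.331% in mutants, without overlap. The microglial genes Csf1r (7235 to 11604 CPM) and Tmem119 (7192 to 10213 CPM) were present in all 6 libraries. Xist was at 0 counts in M2618, M2617 and M2624 and between 218.8 and 306.8 CPM in M2629, M2633 and M2621, so each genotype group held mice of both kinds. At low counts, the hindbrain markers went against the region label. A list of 16 hindbrain genes, mainly Hox genes, summed to 1.34 to 2.92 CPM in the cortex-labelled libraries and 0.399 to 1.19 CPM in the brainstem-labelled ones, and was higher in the cortex-labelled library of each of the 6 mice. Of the 16 genes, 2 passed the filter on low counts. A list of 10 cortex genes summed to 0.401 to 0.875 CPM in cortex-labelled controls and 0.244 to 1.18 CPM in cortex-labelled mutants. In these 6 libraries 6 of the 10, among them Emx1, Emx2 and Tbr1, were at 0 counts. Lhx2 was at 0.820 CPM in M2621 and Neurod6 at 0.595 CPM in M2633. The libraries are therefore called cortex-labelled throughout.

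Mutant and control libraries differed across many genes. Of 16595 genes tested, 904 passed an adjusted p of 0.05 in edgeR's quasi-likelihood test, which is 5.45% of those tested: 604 were higher in mutants (3.64%) and 300 were lower (1.81%). The median rise among genes that passed was 1.41 on the log2 scale and the median fall was -0.94. More than 4-fold changes were found in 228 of the higher and 56 of the lower genes. Without regard to the test, the 3 mutant and 3 control libraries did not overlap for 4092 genes, 24.7% of those tested, and 902 of the 904 were among them. Across all genes tested the median difference was -0.01. The first principal component, with 39.8% of the variance, placed the controls between -72.7 and -43.7 and the mutants between 55.5 and 66.2. The number of genes that passed fell to 462 without M2633 and to 585 without M2629, and was between 607 and 677 without any 1 of the other 4 mice.

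Interferon-stimulated genes were the group that rose most completely. All 25 genes of an interferon response list were higher in mutants and passed the test, against 3.64% of all genes, and their median difference was 4.74 on the log2 scale, against -0.01 over all genes. These genes encode antiviral effectors (Ifit1, Ifit2, Ifit3, Mx1, Mx2, Rsad2, the Oas family), a secreted ubiquitin-like modifier (Isg15) and its protease (Usp18), and the transcription factors Stat2 and Irf7. The summed level of the list was 323, 360 and 272 CPM in controls M2618, M2629 and M2633, and 4635, 5424 and 4760 CPM in mutants M2617, M2621 and M2624. Values per mouse are given in this order throughout. Every mutant sum was far above every control sum. Ifit3 and Ifit3b, the Oas1 genes and the Ifi200 family have near-identical copies that can share reads.

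The promoters of 3 of these genes are shown because they carry the ISRE letters. They are the 3 list members with the smallest p whose promoter in the RefSeq table (GRCm38.p6) held the motif, and each is the 250 bases before the RefSeq start, 5′ to 3′ on the strand of the gene, with the matching letters in capitals. Where matches overlap, all their letters are in capitals. The bases after the RefSeq start opened a GENCODE transcript for Isg15, but not for Bst2 or Stat2.
Bst2, chr8:71537473-71537722, minus strand: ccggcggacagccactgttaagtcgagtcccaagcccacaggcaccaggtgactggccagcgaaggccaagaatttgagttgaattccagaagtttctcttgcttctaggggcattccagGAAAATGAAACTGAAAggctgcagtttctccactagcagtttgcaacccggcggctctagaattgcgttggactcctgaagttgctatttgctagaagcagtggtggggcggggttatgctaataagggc
Isg15, chr4:156200819-156201068, minus strand: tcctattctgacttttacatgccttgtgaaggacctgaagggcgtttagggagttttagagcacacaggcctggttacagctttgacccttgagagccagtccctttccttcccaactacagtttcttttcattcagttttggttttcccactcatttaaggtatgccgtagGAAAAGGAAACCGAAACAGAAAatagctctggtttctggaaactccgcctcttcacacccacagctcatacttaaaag
Stat2, chr10:128270248-128270497, plus strand: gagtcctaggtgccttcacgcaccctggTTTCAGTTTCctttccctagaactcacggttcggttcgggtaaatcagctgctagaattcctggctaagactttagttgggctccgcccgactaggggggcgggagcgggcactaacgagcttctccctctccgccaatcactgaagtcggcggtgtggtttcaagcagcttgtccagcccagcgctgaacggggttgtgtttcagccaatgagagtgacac
The motif searched was GAAANNGAAA on both strands, and in Stat2 it lies on the opposite strand. Of the 25 interferon response genes, 16 had a promoter in the table, and 9 of their 17 promoters (52.9%) held the motif, against 2.98% of all 32851 promoters. In a list of 16 interferon-inducible GTPase genes, 10 had a promoter and 9 of 11 promoters (81.8%) held it. None of 25 promoters of cell cycle genes, 21 of early response genes and 14 of ERK output genes did. At the share of 2.98% over all promoters, lists of this size would hold few or none. Other motifs were searched in the same way. The AP-1 letters TGANTCA were in 6 of the 17 interferon response promoters (35.3%) and 2 of the 11 GTPase promoters (18.2%), against 6.75% of all promoters. The ETS letters CCGGAAG were in 2 of the 17 interferon response promoters (11.8%) and none of the GTPase promoters, against 6.91% of all, and the EGR letters GCGNGGGCG were in none of either, against 4.7% of all. These are matches of letters in a fixed window, and binding was not measured.

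Bst2, which encodes tetherin, a membrane protein that holds budding viruses on the cell, was at 63.0, 89.4 and 71.3 CPM in controls and 389, 603 and 371 CPM in mutants. All mutants were above all controls, and the difference was 2.61 ± 0.28 (log2, SE) with an adjusted p of 0.000106. Isg15 was at 3.66, 8.56 and 4.82 CPM in controls and 73.5, 142 and 90.4 CPM in mutants, a difference of 4.16 ± 0.59 (adjusted p = 0.000952). Usp18, which removes ISG15 and limits interferon receptor signalling, was at 19.2, 14 and 12.0 CPM in controls and 380, 509 and 437 CPM in mutants, a difference of 4.87 ± 0.72 (adjusted p = 0.00111). Stat2 was at 40.6, 16.3 and 30.5 CPM in controls and 156, 149 and 178 CPM in mutants, a difference of 2.47 ± 0.37. The largest difference in the list was 7.13 ± 1.36 for Ifi44, which was at 0, 1.0 and 0.0661 CPM in controls and 55.8, 43.3 and 62.8 CPM in mutants. Cxcl10, a chemokine that attracts T cells, rose by 5.44 ± 1.17.

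**Figure D1:**
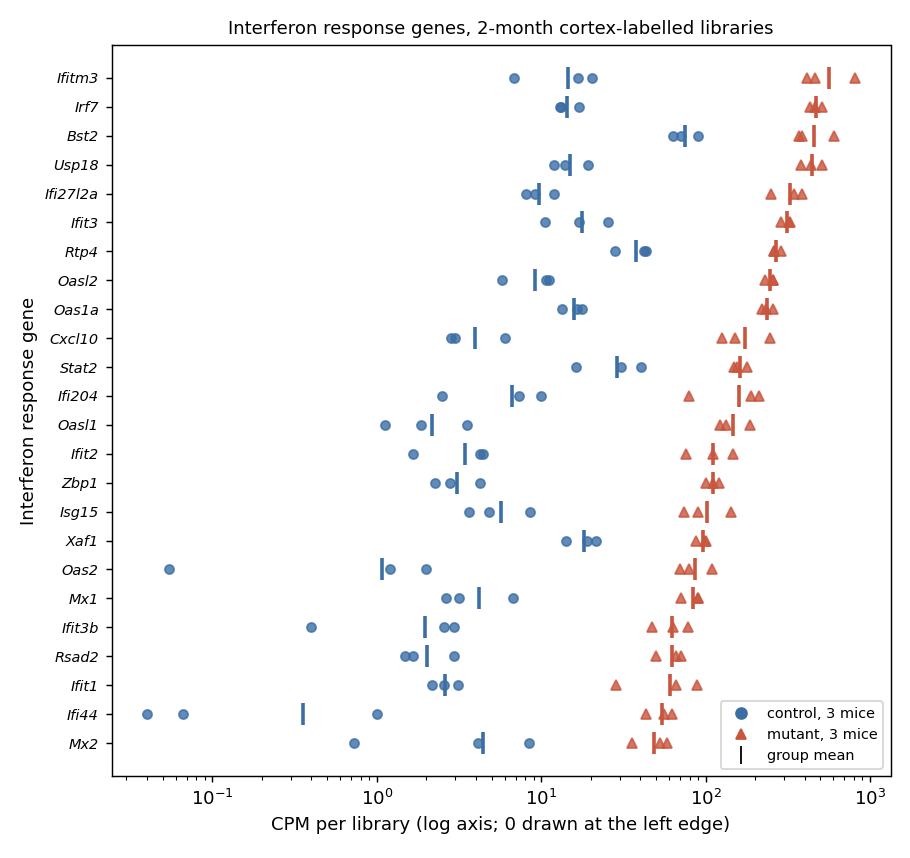
Level of 24 of the 25 interferon response genes in the 6 cortex-labelled libraries of 2-month mice, in CPM on a log axis, with 3 control mice (circles), 3 mutant mice (triangles) and a bar at each group mean. For every gene shown the 3 mutants lie above the 3 controls.

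Genes upstream of this response were measured in 2 lists. Of 14 interferon ligands and receptors, 7 passed the filter on low counts and none passed the test, which 5.45% of all genes passed. There was 1 higher gene with DESeq2, with limma-voom with or without the mouse block, in the sets of 6 and 12 libraries and without the filter. Ifnb1, which encodes interferon beta, was at 0, 0 and 0.0661 CPM in controls and 2.87, 4.20 and 0.824 CPM in mutants. The mutants lay above the controls, with a difference of 6.62 ± 2.03 that missed the threshold (adjusted p = 0.0762). Of 22 interferon signalling genes and nucleic acid sensors tested, 10 rose, against 3.64% of all genes, and 12 did not pass, with a median of 0.57. The cytosolic RNA sensors Ifih1 (2.29 ± 0.51), Dhx58 (2.42 ± 0.54) and Ddx58 (1.35 ± 0.31) were among those that rose, as were Irf9 (0.80 ± 0.23), the RNA editing enzyme Adar (1.73 ± 0.34) and the feedback inhibitor Socs1 (1.27 ± 0.23). Without M2618, M2624, M2629 or M2633 the count of 10 was 5, 5, 6 and 5.

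Interferon-inducible GTPases, which act on vacuoles that hold pathogens, also rose: 11 of 16 passed, all higher, with a median of 1.94. Of all genes tested 3.64% were higher. Irgm1 was at 77.0, 90.8 and 84.1 CPM in controls and 214, 212 and 292 CPM in mutants (1.51 ± 0.22, adjusted p = 0.000952). Gbp2 was at 5.74, 4.21 and 1.26 CPM in controls and 51.4, 42.7 and 48.9 CPM in mutants (3.66 ± 0.58). For either gene every mutant exceeded every control. Tgtp1 and Tgtp2 are near copies and may share reads. The count was 7, 7 and 6 without M2618, M2624 and M2633.

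Of 21 genes in the antigen presentation list 10 rose, against 3.64% of all genes, none fell, 11 did not pass and the median was 1.10. They were the class I heavy chains H2-D1, H2-K1 and H2-Q7, the light chain B2m, the peptide transporter genes Tap1 and Tap2, the immunoproteasome subunits Psmb8 and Psmb9, the class I transactivator Nlrc5 and the costimulatory receptor Cd40. H2-D1 was at 1076, 2103 and 1565 CPM in controls and 15709, 7618 and 9958 CPM in mutants, a difference of 2.81 ± 0.47 (adjusted p = 0.0022). Tap1 was at 67.5, 48.7 and 40.2 CPM in controls and 324, 316 and 222 CPM in mutants (2.46 ± 0.33, adjusted p = 0.000571). B2m was at 2002, 3303 and 2933 CPM in controls and 6517, 6239 and 6000 CPM in mutants (1.19 ± 0.18, adjusted p = 0.00115). In all of these the groups were apart. The class II invariant chain Cd74 was at 61.0, 259 and 211 CPM in controls and 836, 808 and 436 CPM in mutants and did not pass (1.97 ± 0.58, adjusted p = 0.0573). The class I genes are near copies of each other, so reads may be shared among them. The count was 9 or 10 without any 1 mouse.

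Chemokines and interleukin 1 genes were higher in mutants. Of 20 cytokine and chemokine genes tested, 11 rose and none fell, against 3.64% and 1.81% of all genes. Ccl2, a chemokine for monocytes, was at 2.90, 12.6 and 7.33 CPM in controls and 123, 635 and 251 CPM in mutants (5.46 ± 0.92, adjusted p = 0.00213). Ccl12 was at 37.9, 123 and 48.0 CPM in controls and 905, 3032 and 932 CPM in mutants (4.54 ± 0.81), and M2621 was the highest mutant for each of these and for Ccl7. Il1b was at 2.08, 3.61 and 3.70 CPM in controls and 43.4, 61.4 and 44.5 CPM in mutants (3.99 ± 0.59, adjusted p = 0.00111), and Il1rn, which encodes the secreted antagonist of interleukin 1, rose by 5.66 ± 1.0. Ccl5 rose by 5.27 ± 0.89, Ccl3 by 2.02 ± 0.49 and Ccl4 by 1.74 ± 0.46. The count was 7, 6, 7 and 7 without M2618, M2621, M2629 and M2633. Ccl7 missed the threshold without M2618, M2621 or M2629.

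The largest rises among genes of at least moderate level included chemotactic and complement genes. Cxcl13, a B cell chemokine, was at 0, 0.902 and 0 CPM in controls and 187, 65.2 and 140 CPM in mutants (8.6 ± 1.86, adjusted p = 0.0122). M2629 was the 1 control with a count for Cxcl13, and the difference ranged from 8.01 to 14.09 without each mouse in turn and missed the threshold without M2618 or M2633. C4b, a complement component in the classical pathway, was at 0.984, 1.80 and 0.595 CPM in controls and 478, 223 and 277 CPM in mutants (8.13 ± 1.26, adjusted p = 0.00133). Ch25h, which makes the oxysterol 25-hydroxycholesterol, was at 2.35, 2.50 and 1.45 CPM in controls and 106, 292 and 327 CPM in mutants (6.83 ± 1.31). In each the lowest mutant exceeded the highest control many times over. The lymphocyte activation marker Cd69 (6.41 ± 1.27), the lectin-like receptor gene Klrb1b (5.99 ± 0.94) and the proteoglycan gene Spock1 (5.81 ± 1.36) were in the same range, together with Oas1g, Oas2, Oasl1, Ifi207 and Ifi213 (5.79 to 6.92). Of 16 complement genes 5 rose (C4b, C3, C2, Cfb and Itgax), against 3.64% of all genes, and 11 did not pass, with a median of 0.26. That count was 1, 1, 3 and 2 without M2617, M2618, M2629 and M2633. C3 was at 0, 0.0501 and 1.26 CPM in controls and 14.4, 6.51 and 6.33 CPM in mutants (4.49 ± 1.08, adjusted p = 0.0198). Calls were lost without M2617, M2618 or M2629 for C3 and Spock1, and without M2617, M2618 or M2633 for Itgax.

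Cell cycle genes were higher in mutants. All 28 genes of the list had a positive difference, 17 passed the test, against 3.64% of all genes that rose, and the median was 3.17. They cover DNA replication licensing (Mcm2, Mcm5, Mcm6, Mcm7), nucleotide supply (Rrm2), the cyclins A2, B1 and B2 with Cdk1, and mitotic kinases and exit factors (Aurka, Aurkb, Plk1, Cdc20, Ube2c). Cdk1 was at 6.23, 9.97 and 4.76 CPM in controls and 39.2, 40.8 and 48.4 CPM in mutants (2.61 ± 0.37, adjusted p = 0.000911). Aurka was at 1.86, 3.91 and 4.16 CPM in controls and 22.0, 20.2 and 30.4 CPM in mutants (2.87 ± 0.43, adjusted p = 0.00115). Cdc20, the activator of the anaphase-promoting complex, was at 2.08, 6.01 and 4.29 CPM in controls and 53.4, 33.9 and 31.9 CPM in mutants (3.26 ± 0.50, adjusted p = 0.00129). The groups were apart for 25 of the 28 genes, against 24.7% of all genes tested. Of 25 promoters of these genes 6 held the ETS letters (24%), 4 the EGR letters (16%) and none the AP-1 letters. Of all promoters 6.91%, 4.7% and 6.75% held them. Mki67 was at 0.0547, 0.250 and 0.396 CPM in controls and 4.95, 0.513 and 6.49 CPM in mutants and did not pass (4.07 ± 1.65, adjusted p = 0.173). The count was 12 without M2618, 13 without M2629, 14 without M2621 or M2624, 16 without M2617 and 10 without M2633.

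**Figure D2:**
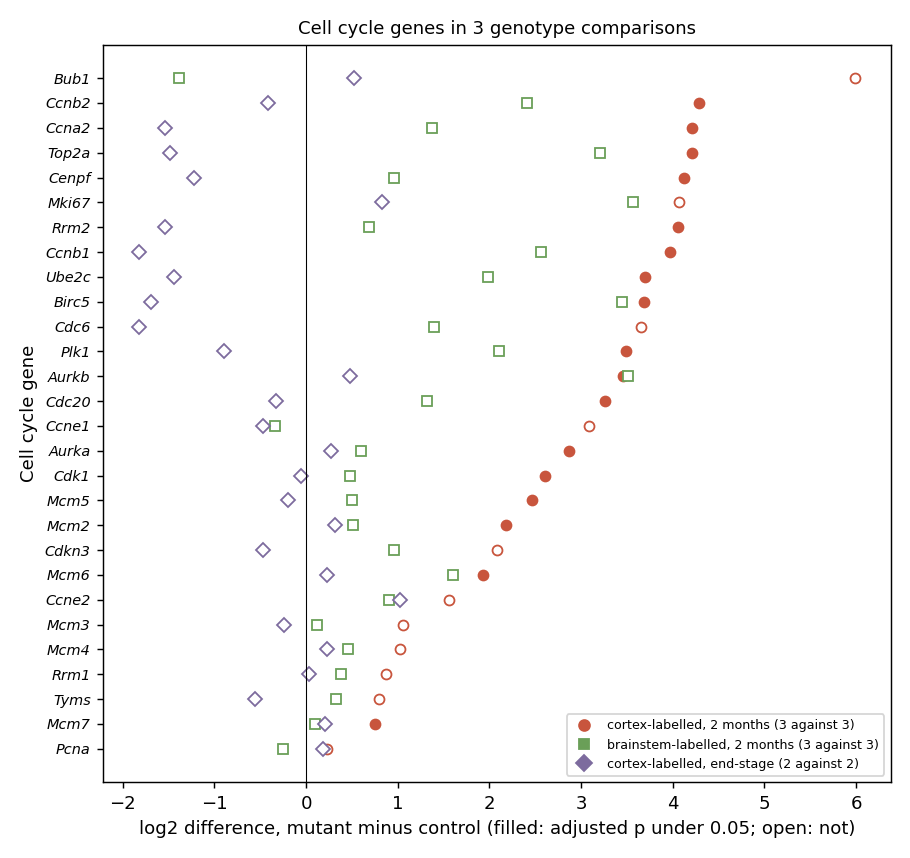
Mutant minus control difference (log2) of 28 cell cycle genes in 3 comparisons: cortex-labelled at 2 months (circles), brainstem-labelled at 2 months (squares) and cortex-labelled at end-stage (diamonds), with filled symbols for an adjusted p under 0.05. Filled symbols appear in 17 genes of the first comparison and in neither of the others.

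Homeostatic microglial genes were lower in part. Of 21 genes 7 fell and none rose, against 1.81% of all genes that fell, with a median of -0.49. Gpr34, a receptor for lysophosphatidylserine, was at 2558, 2640 and 2915 CPM in controls and 1014, 816 and 1231 CPM in mutants (-1.41 ± 0.18, adjusted p = 0.000522). P2ry12, the receptor that directs microglial processes toward ADP, was at 5764, 6508 and 6273 CPM in controls and 2915, 2260 and 3491 CPM in mutants (-1.10 ± 0.20, adjusted p = 0.00391). P2ry13, its neighbour on chromosome 3, was at 3409, 3297 and 2660 CPM in controls and 1558, 1601 and 1569 CPM in mutants (-0.99 ± 0.14, adjusted p = 0.00111). No mutant reached the lowest control in these 3 genes. Crybb1, Entpd1, Ltc4s and the transcription factor gene Sall1 (-0.59 ± 0.17) also fell. Cx3cr1, the gene that carries the Cre insertion in all 6 mice, was at 2793, 2514 and 1988 CPM in controls and 1578, 998 and 1624 CPM in mutants and did not pass (-0.80 ± 0.30, adjusted p = 0.144). Tmem119 did not pass either (0.24 ± 0.21, adjusted p = 0.596). The count was 3 without M2621 or M2633, 4 without M2617, M2618 or M2624, and 6 without M2629.

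Disease-associated microglial genes rose in part. Of 26 genes 10 rose, against 3.64% of all genes, none fell and the median was 0.79. Cst7, which encodes the cathepsin inhibitor cystatin F, was at 5.47, 5.81 and 5.02 CPM in controls and 46.1, 43.3 and 52.5 CPM in mutants (3.12 ± 0.33, adjusted p = 0.000106), with little spread within either group. Axl, a receptor kinase for the uptake of dead cells, was at 36.4, 34.4 and 11.2 CPM in controls and 915, 716 and 711 CPM in mutants (4.83 ± 0.85, adjusted p = 0.00269). Spp1, which encodes osteopontin, was at 11.8, 33.6 and 15.1 CPM in controls and 340, 205 and 1218 CPM in mutants (4.86 ± 1.13, adjusted p = 0.0156). Clec7a, Itgax, Ank, Cd63, Ctsb, Ctsz and B2m made up the rest. Apoe was at 1555, 1238 and 870 CPM in controls and 6182, 1234 and 3273 CPM in mutants, so the groups overlapped, and it did not pass (1.55 ± 0.53, adjusted p = 0.104). Lpl (0.97 ± 0.63), Trem2, Tyrobp and Gpnmb did not pass. The count was 4 without M2633 and 6 without M2618 or M2624. Spp1 missed the threshold without M2618, M2624 or M2633.

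**Figure D3:**
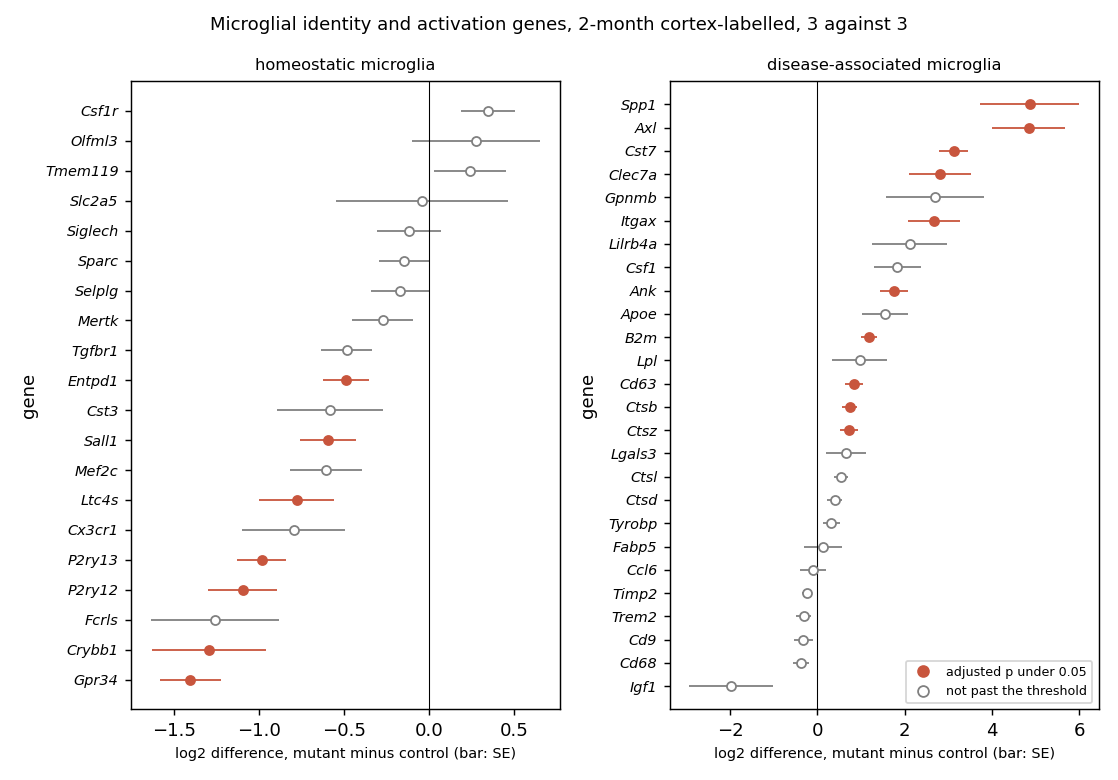
Mutant minus control difference (log2, points) with its SE (bars) for 20 of 21 homeostatic and all 26 disease-associated microglial genes in cortex-labelled libraries at 2 months, 3 mice against 3, with filled points for an adjusted p under 0.05. The 7 filled points of the homeostatic list lie below 0 and the 10 of the disease-associated list lie above it.

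No transcript of the ERK cascade itself passed in edgeR's quasi-likelihood test. The median of the 19 cascade genes tested was -0.02, and 5.45% of all genes passed. There was 1 higher gene with DESeq2, with limma-voom with or without the mouse block and with RLE size factors, and 1 lower gene without M2624 and without the low-count filter. Braf was at 14.7, 12.8 and 16.5 CPM in controls and 16.3, 5.74 and 11.2 CPM in mutants (-0.41 ± 0.47, adjusted p = 0.705). Of 17 tested genes that report or limit ERK output, Egr1 and Myc rose, against 3.64% of all genes. The list had a median of 0.80, against -0.01 over all genes, with 13 positive and 4 negative differences. The groups were apart for 9 of the 17, of which 7 were higher, against 24.7% of all genes. Egr1, an immediate early transcription factor gene, was at 7.71, 7.61 and 20.2 CPM in controls and 40.4, 139 and 69.96 CPM in mutants (2.82 ± 0.50, adjusted p = 0.00285). Myc was at 80.4, 77.2 and 93.0 CPM in controls and 108, 186 and 144 CPM in mutants (0.80 ± 0.23, adjusted p = 0.0498), and it missed the threshold without any 1 of M2618, M2621, M2624, M2629 and M2633. The count of 2 was 1 without M2621, M2629 or M2633 and 3 without M2618. Dusp6, an ERK phosphatase, was at 788, 673 and 1036 CPM in controls and 815, 1156 and 945 CPM in mutants (0.22 ± 0.21, adjusted p = 0.631). Etv5 was at 259, 151 and 117 CPM in controls and 157, 208 and 157 CPM in mutants (-0.02 ± 0.29). Etv4 was at 2.51, 0.150 and 0 CPM in controls and 5.93, 7.18 and 7.05 CPM in mutants, with the mutants above the controls, and did not pass (2.90 ± 1.26, adjusted p = 0.208). Spry2 had 1 count in the 6 libraries and was not tested. Of 14 promoters of 12 ERK output genes, none held the ETS, AP-1 or EGR letters spelled out above. Of all promoters 6.91%, 6.75% and 4.7% held them, so 14 promoters would hold few or none at these shares.

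Early response genes, known for fast induction by many stimuli, gave 1 call in each direction. Of 19 tested, Ier2 rose and Jund fell, with a median of 0.01. Over all genes tested 3.64% rose and 1.81% fell, so these calls do not set the list apart. Ier2 was at 24.1, 22.0 and 36.0 CPM in controls and 57.6, 134 and 66.7 CPM in mutants (1.65 ± 0.31, adjusted p = 0.00446). Jund was at 98.3, 105 and 109 CPM in controls and 50.7, 74.0 and 48.9 CPM in mutants (-0.85 ± 0.17, adjusted p = 0.00596). M2621 was the highest mutant for Egr1, Myc and Ier2. There were 2 rises without M2633 and 2 falls without M2624. Of 21 promoters of early response genes 6 held the EGR letters (28.6%, against 4.7% of all promoters). The ETS letters were in 1 (4.76%, against 6.91%) and the AP-1 letters in none (against 6.75%).

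Lysosomal genes rose modestly: 8 of 26 passed, all higher, against 3.64% of all genes, and the median was 0.44. Psap, the precursor of activators of sphingolipid breakdown, was at 3633, 2891 and 3509 CPM in controls and 10179, 7380 and 7838 CPM in mutants (1.34 ± 0.20, adjusted p = 0.00115). The protease gene Ctss was at 10276, 13722 and 11669 CPM in controls and 21215, 17998 and 19285 CPM in mutants (0.71 ± 0.12, adjusted p = 0.00227). Neu1 (0.96 ± 0.16), Npc2, Grn, Glb1, Ctsb and Ctsz made up the rest. The count was 5, 5 and 4 without M2617, M2629 and M2633.

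Of 22 sterol synthesis genes 7 rose, against 3.64% of all genes, none fell, 15 did not pass and the median was 1.01. Sqle, which makes squalene epoxide, was at 7.65, 9.02 and 5.95 CPM in controls and 28.7, 51.5 and 44.6 CPM in mutants (2.46 ± 0.41, adjusted p = 0.00193). The genes that rose also included Cyp51 (1.05 ± 0.24), Dhcr7, Insig1 and the regulators Srebf1 (1.09 ± 0.25) and Srebf2. Its count was 2 without M2621 or M2629, 3 without M2624 and 1 without M2633. Cyp51 was lost without M2621, M2624 or M2633, and Srebf1 without M2624, M2629 or M2633. Of 19 genes of lipid uptake and sterol efflux, the scavenger receptor gene Cd36 rose (0.330 to 1.25 CPM in controls, 27.9 to 39.4 CPM in mutants, 5.25 ± 1.18), and Mylip and Lpcat3 fell (-0.88 ± 0.21 and -0.53 ± 0.14). Over all genes tested 3.64% rose and 1.81% fell. In this list there were 2 rises without M2621, and Cd36 missed the threshold without M2629 or M2633. The 2 falls became 1 without M2617 or M2629 and 0 without any 1 of the other 4 mice.

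Glycolysis, senescence-linked, matrix and purinergic genes gave smaller counts, beside 3.64% of all genes tested that rose and 1.81% that fell. Of 20 glycolysis identifiers, which stand for 19 genes because Aldoa has 2, 5 rose, led by Ldha (280 to 311 CPM in controls, 522 to 885 CPM in mutants, 1.15 ± 0.26) and Pkm (1.05 ± 0.26). The count was 3 without M2617, 2 without M2624 or M2633, 1 without M2618 and 0 without M2621 or M2629. Ldha was lost without M2618, M2621, M2629 or M2633, and Pkm without any 1 mouse but M2617. Of 14 senescence-linked genes 4 rose, namely Lmnb1 (1.99 ± 0.34), the cell cycle inhibitor Cdkn1a (1.59 ± 0.34), Plaur (1.86 ± 0.40) and Glb1. Lmnb1 is known to fall in senescent cells. The count was 2 without M2633, and Plaur was lost without M2621 or M2633. Of 19 matrix and adhesion genes 3 rose (Fn1, Spp1 and Thbs1), and the count was 1 without M2618 or M2624 and 0 without M2633. Of 13 purinergic genes 3 rose, among them P2ry14, and 4 fell. The 3 rises were 1 without M2617 or M2629. None of 15 TGF-beta pathway genes passed, and 1 did without M2618.

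Ribosomal protein genes rose in number but by less. Of 83 tested 60 were higher, against 3.64% of all genes, and none lower, with a median of 1.02. Rpsa was at 110, 129 and 132 CPM in controls and 321, 405 and 272 CPM in mutants (1.43 ± 0.19, adjusted p = 0.000522). Their summed level was 5186 to 6587 CPM in controls and 9746 to 14477 CPM in mutants. These genes have many processed copies in the genome, and the sources used here do not say how reads that map to several places were counted. The mitochondrial share of counts moved the same way, and its part in this result was not tested. The ribosomal list was assembled after the values were seen.

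The 15 largest falls among genes of at least moderate level ranged from -1.92 to -3.39. Ccdc162 (chr10:41538846-41716634) was at 9.08, 12.0 and 6.28 CPM in controls and 0.733, 0.923 and 0.927 CPM in mutants (-3.39 ± 0.35, adjusted p = 0.000106). Sema4b, a membrane semaphorin, was at 25.3, 13.6 and 22.0 CPM in controls and 2.08, 1.64 and 3.55 CPM in mutants (-3.06 ± 0.42, adjusted p = 0.00067). Gp9, known as a platelet glycoprotein, was at 59.9, 81.2 and 77.2 CPM in controls and 15.5, 18.4 and 13.5 CPM in mutants (-2.20 ± 0.25, adjusted p = 0.000195). Controls and mutants were apart in all 15, which the rule for naming them required. Srpk3, a kinase for splicing factors, fell by 2.10 and Cdkn1c, an inhibitor of cyclin-dependent kinases, by 2.14. Tet1, which oxidises methylated cytosine, fell by 2.38 and the flagellin receptor gene Tlr5 by 2.11. Gpr165, Fgf11, Tnfrsf17, Svip, Sec16b, Duoxa1, Tmem71 and Zfp385c completed the set. Calls were lost without M2621, M2624 or M2629 for Tet1, M2624, M2629 or M2633 for Tlr5, M2617, M2618 or M2621 for Fgf11, M2617, M2624 or M2633 for Svip, any 1 of M2617, M2624, M2629 and M2633 for Sec16b, M2617 or M2618 for Duoxa1, and M2621 for Tmem71. Of 17 microglial transcription factor genes Irf8 rose (0.56 ± 0.15) and Sall1 and Tfec fell, against 3.64% and 1.81% of all genes. The list had 1 rise without M2618 and 1 fall without M2617, and no call without any 1 of the other 4 mice. Tfec was at 0.601, 0.301 and 0.991 CPM in controls and at 0 counts in all 3 mutants.

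Markers of other cells were measured beside these results, in which 3.64% of all genes tested rose and 1.81% fell. Border-associated macrophage markers summed to 2.84 to 34.6 CPM in controls and 69 to 116 CPM in mutants. The difference was carried by 1 of 10 genes, Siglec1, also an interferon-stimulated gene, which was at 1.15, 4.46 and 1.85 CPM in controls and 97.8, 64.8 and 109 CPM in mutants. The defining markers Lyve1, Cd163, Mrc1 and Pf4 were at 0 to 1.96 CPM in the mutants. Of the 10 genes 8 had a negative difference, of which none passed, and the median was -1.95. Monocyte markers summed to 31.0 to 57.2 CPM in controls and 231 to 284 CPM in mutants, and 4 of 10 tested rose: Plac8 (5.65 ± 1.04), Ms4a4c (3.38 ± 0.69), Ms4a6c (1.36 ± 0.30) and Fn1 (4.44 ± 0.99). The defining monocyte genes were near 0, with Ccr2 at 0.437 to 4.11 CPM in controls and 1.24 to 1.49 CPM in mutants and Ly6c2 at 0 to 0.132 CPM and 0.244 to 1.13 CPM. Endothelial and pericyte markers summed to 22.6 to 35.4 CPM in controls and 66.5 to 74.1 CPM in mutants. Kdr (2.78 ± 0.45) and Flt1 (4.51 ± 1.23) rose, Tek was at 0 counts in all 6 libraries and Cldn5 was at 0 counts in 5. B and plasma cell markers summed to 682 to 801 CPM in controls and 430 to 649 CPM in mutants, with Cd79b (-1.33 ± 0.25) and Ighd (-1.44 ± 0.39) lower and Ms4a1, Pax5 and Igkc at 0 counts. Calls were lost without M2621, M2624, M2629 or M2633 for Flt1, without M2617, M2618, M2629 or M2633 for Ighd, without M2618 or M2633 for Siglec1 and Fn1, and without M2633 for Ms4a4c and Ms4a6c. Oligodendrocyte markers summed to 167 to 253 CPM in controls and 254 to 277 CPM in mutants, and none of 8 passed. Unlike the sum, 6 of these 8 genes had a negative difference, and the median was -0.42. Sums overlapped between the groups for astrocytes, neurons, oligodendrocyte precursors, T and NK cells, neutrophils, and ependymal and choroid plexus cells. Erythroid markers summed to 46.0 CPM in control M2633 and under 1 CPM in the other 5 libraries. The part of these cells in the changes above was not tested.

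**Figure D4:**
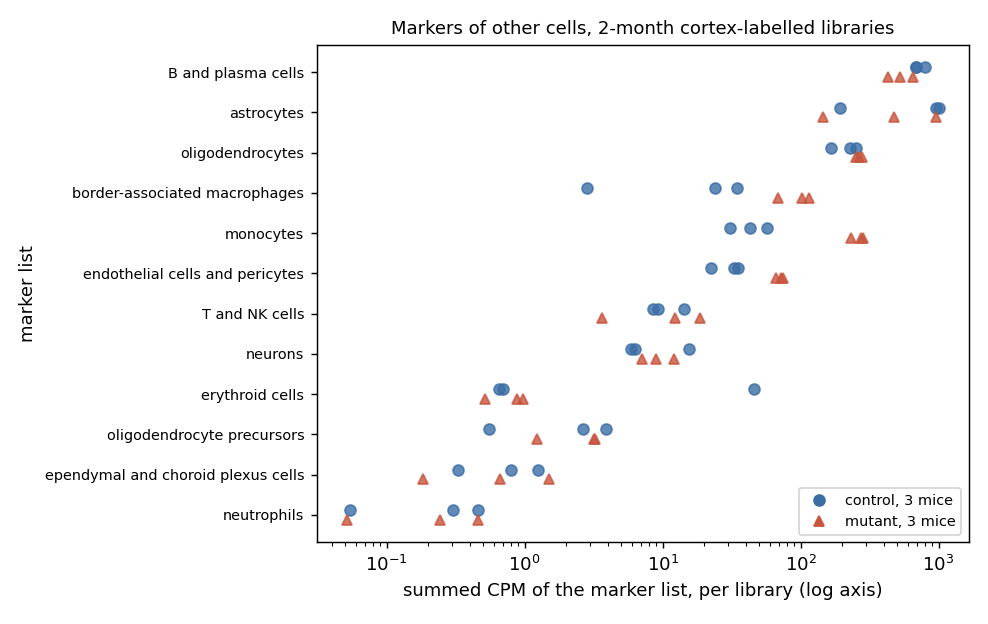
Summed level of each of 12 marker lists for other cells in the 6 cortex-labelled libraries of 2-month mice, in CPM on a log axis, with 3 control mice (circles) and 3 mutant mice (triangles). Mutants lie above controls for border-associated macrophage, monocyte, endothelial and oligodendrocyte lists, below them for B and plasma cells, and among them for the others apart from erythroid cells, where M2633 stands at 46.0 CPM. Most single genes of the border-associated macrophage and oligodendrocyte lists had a negative difference.

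In the brainstem-labelled libraries of the same mice the differences were smaller in number. There, 6 genes passed (0.0362% of those tested) against 904 in the cortex-labelled libraries. The interferon list had a median of 2.82 with 0 of 25 passing. Its sums were 274, 176 and 155 CPM in controls and 1287, 334 and 649 CPM in mutants, so all brainstem-labelled mutants lay above all controls. Cell cycle sums were 170, 227 and 242 CPM in controls and 334, 226 and 279 CPM in mutants and overlapped. The median was 0.93, with no gene called.

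The genotype difference itself differed between the regions for 4 genes without regard to the mouse (0.0241% of those tested) and for 101 of 14807 genes when each mouse was used as a block (0.682%), 78 with a higher and 23 with a lower difference in the cortex-labelled libraries. Blocking is warranted because the 2 libraries of a mouse come from the same animal. In the fit without the block the genes were Cst7, Cks1b, Ccdc162 and Gimap6. Cst7 was at 46.1, 43.3 and 52.5 CPM in cortex-labelled mutants and 13.6, 11 and 10.3 CPM in the brainstem-labelled libraries of the same mice, whose controls were at 9.95, 9.77 and 7.01 CPM. The difference of differences was 2.74 ± 0.44 (adjusted p = 0.0413). With the block, H2-D1 (1.90 ± 0.15), H2-K1 (2.00 ± 0.18), Ctsb, Cd63 and C4b had a larger rise in the cortex-labelled libraries, and P2ry12, P2ry13 and Gpr34 a larger fall. By list, 7 disease-associated, 6 antigen presentation, 5 lysosomal, 3 cell cycle and 3 GTPase genes had a larger difference there. Of 25 interferon genes 2, Bst2 and Mx2, did, and the median difference of differences of that list was 1.70. Among all 14807 genes 78 had a larger difference there, with a median of -0.04 over all genes. Without the block the count was 1 without M2633 and 0 without any 1 of the other 5 mice.

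**Figure D5:**
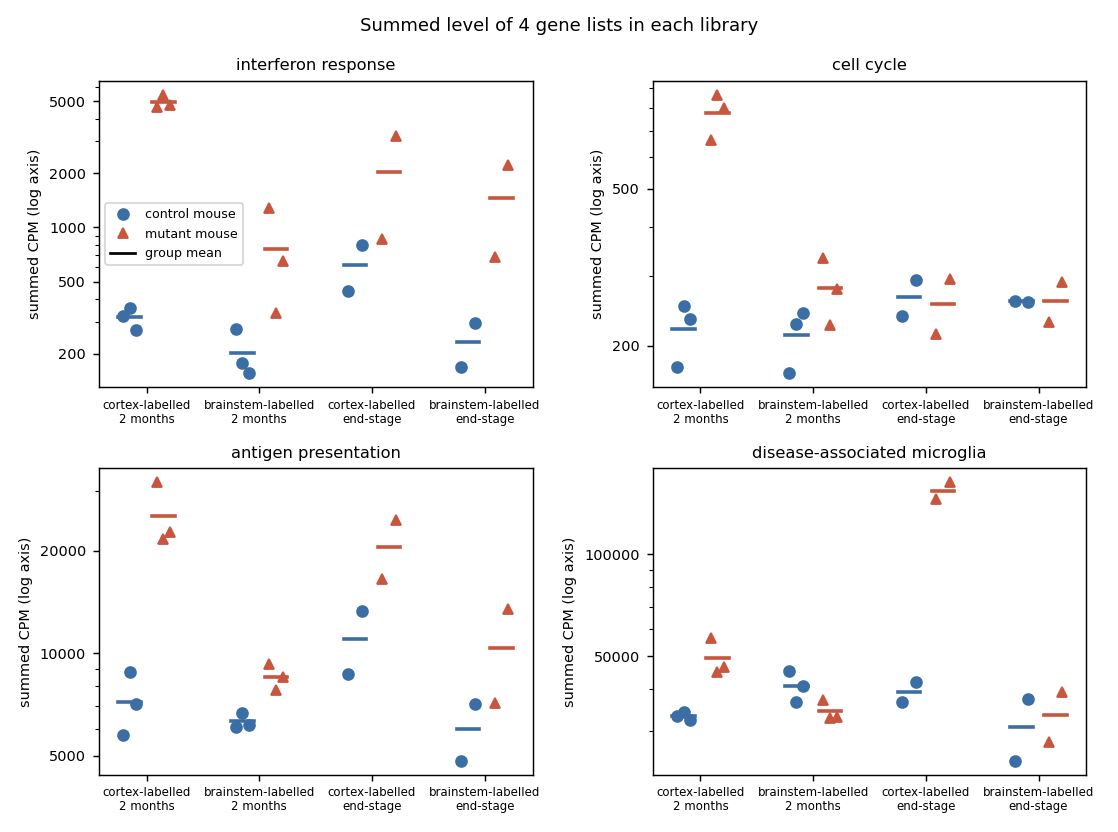
Summed level (CPM, log axis) of 4 gene lists in every library of the series, by region label and stage, with control mice as circles, mutant mice as triangles and a bar at each group mean. Interferon and cell cycle sums are highest in the 3 cortex-labelled mutants at 2 months, and disease-associated sums are highest in the 2 cortex-labelled mutants at end-stage.

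At end-stage, cortex-labelled mutants and controls, 2 mice each, differed by 304 higher (1.83%) and 362 lower genes (2.18%). The interferon list had a median of 1.80 there with 0 of 25 passing, and its sums were 443 and 798 CPM in controls and 861 and 3193 CPM in mutants. The cell cycle list had a median of -0.29 with 0 of 28 passing, and its sums overlapped (238 and 294 CPM in controls, 214 and 295 CPM in mutants). Of the disease-associated list 14 of 26 rose at end-stage, and of the homeostatic list 10 of 21 fell. P2ry12, P2ry13 and Gpr34 fell at each stage (-1.38, -1.39 and -1.21 at end-stage).

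The genotype difference itself differed between the stages for 44 genes (0.265% of those tested), 28 with a higher and 16 with a lower difference at 2 months. Cell cycle genes were among the first. Ccna2 was at 0.765, 1.75 and 0.793 CPM in 2-month controls and 15.3, 19.3 and 27.6 CPM in 2-month mutants, but at 0.847 and 6.36 CPM in end-stage controls and 0.709 and 1.82 CPM in end-stage mutants. The difference of differences was 5.75 ± 1.07 (adjusted p = 0.03). Ccnb1 (5.80 ± 1.15) and Cks1b (2.79 ± 0.47) had the same pattern, and Sqle also differed (3.19 ± 0.64). Apoe went the other way: it was at 662 and 995 CPM in end-stage controls and 95373 and 102516 CPM in end-stage mutants, against the overlapping 2-month values given above (-5.35 ± 0.88, adjusted p = 0.0145). Postn, Igf1, Abcg1, Bambi and Fabp5 also rose in the end-stage mutants and did not pass at 2 months. No gene of the interferon list was among the 44, and at a share of 0.265% a list of 25 would hold few or none. The median difference of differences of that list was 2.44, larger at 2 months. The count was 10, 23, 25 and 108 without end-stage mice M1375, M1376, M1521 and M1524, and 28, 28, 19, 26 and 25 without 2-month mice M2617, M2618, M2621, M2624 and M2633. Xist was at 148.3 to 273.3 CPM in the cortex-labelled libraries of all 4 end-stage mice. Each 2-month group mixed mice with and without Xist. The part of this in the stage difference was not tested.

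When genotype was taken from the sample record instead, the cortex-labelled difference was not found. Prkd1 was the 1 gene that passed, and 694 genes had an unadjusted p under 0.05, against 3254 by mouse number. Groups did not overlap for 1145 genes, against 4092. Of the 904 genes 45 had the same sign under the record. No member of any pathway list passed, and the interferon median was -0.84 and the cell cycle median -0.57. Prkd1 was at 0, 15.1 and 0 CPM in the controls by mouse number and 7.88, 4.36 and 0 CPM in the mutants, and by mouse number it did not pass (-0.32 ± 2.15). With only M2624 and M2629, which have 1 genotype under either reading, there is 1 mouse a group and the spread comes from the other groups. The interferon median was then 4.38 and the cell cycle median 2.82, with none of either list passing and 1 gene passing in all.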

How the data were processed

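RNA from microglia was made into SMART-Seq v4 (12 cycles) and KAPA Hyper Prep (8 cycles) libraries and sequenced on a NovaSeq 6000, per the labels' protocols. The authors deposited raw counts of reads per gene for 20 libraries. The submitters' processing notes name FastQC, Subread, edgeR and mm10. How cells were isolated, the annotation, the strand setting and the handling of multi-mapped reads are not given in the sources used here. Of 55487 gene identifiers 55394 matched a GENCODE symbol, and the other 93, with 0.00123% of counts, were kept under their identifiers.

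Counts were fitted with edgeR 4.0.16 (R 4.3.3) by quasi-likelihood over 20 libraries in 8 groups, with TMM scaling and edgeR's low-count filter, which left 16595 genes. P-values were adjusted by the Benjamini-Hochberg method, with a threshold of 0.05. Errors on log2 differences are SEs derived from the F statistic. Alternatives were DESeq2 1.42.0, limma-voom (limma 3.58.1) with and without a mouse block, other library sets, RLE scaling, no filter, the record's genotype, and each mouse left out with both its libraries.

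Same-numbered libraries come from the same animal, and the correlation of their deviations was 0.161 to 0.248 over 6 mice. With 1 library a mouse in each comparison within a region, mice are the replicates. The named genes are the 15 largest rises and falls among called genes whose mean log2 CPM reached 1, with no overlap and no predicted symbol, up to 3 called genes per list by p, and Braf, Cx3cr1, Etv4, Etv5, Dusp6, Spry2, Apoe, Lpl, P2ry12, Tmem119 and Prkd1. Other members of a list were named after their values were seen. The members and lists were chosen with earlier results of these data known. The lists of interferon ligands and receptors, interferon signalling and sensors, GTPases, microglial transcription factors and ribosomal proteins, the ISRE letters and the counts per list without each mouse were added after the data were seen. Some members of the lists are counted in them but not reported here by name.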

Additional observations from a re-analysis of the deposited data

Results flagged for a closer look

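Each gene below was set apart by a test of the difference between the genotype effects of 2 groups. Between regions at 2 months, the mutant minus control log2 difference in cortex-labelled libraries minus that in brainstem-labelled ones was -3.34 ± 0.46 for Ccdc162, 2.74 ± 0.44 for Cst7, 2.86 ± 0.42 for Cks1b, a subunit that binds cyclin-dependent kinases, and -2.19 ± 0.36 for Gimap6, a GTPase gene of immune cells. Gimap6 was at 54.8, 71.8 and 54.8 CPM in cortex-labelled controls and 24.1, 31.4 and 23.6 CPM in mutants, but at 57.4, 65 and 74.0 CPM in brainstem-labelled controls and 133, 144 and 114 CPM in mutants. Its genotype difference thus had opposite signs in the 2 regions of the same mice. The rise in the brainstem-labelled libraries did not pass by itself (0.996 ± 0.251, adjusted p = 0.174).

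Between stages, the genotype difference at 2 months minus that at end-stage was positive for Sqle (3.19), Ccna2 (5.75), Ccnb1 (5.80), Pecam1 (2.43) and Mmp28 (9.65), and Mmp28 was at 0 counts in both end-stage mutants, so its value depends on the prior count. It was negative for Rgs1 (-2.39), Apoe (-5.35), Postn (-6.69), Igf1 (-9.90), Abcg1 (-3.14), Bambi (-3.76), Dusp1 (-2.60) and Fabp5 (-3.57). Apoe carries lipids between cells, Abcg1 exports sterol and Fabp5 binds fatty acids.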

How the results depend on the processing

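The cortex-labelled comparison at 2 months gave 904 genes, against 900 with RLE size factors, 865 in the 6 compared libraries alone, 993 in the 12 libraries of 2-month mice, 1229 with limma-voom and 1252 with limma-voom and mouse as a replicate block. It gave 1532 with DESeq2, 1551 without a low-count filter, and 462 to 677 without each mouse in turn. With genotype as the record gives it, or with only M2624 and M2629, it gave 1. The genotype by region comparison gave 4 genes, 101 with mouse as a replicate block, 98 with DESeq2, 350 without a filter, 0 with the record's genotype and 0 to 1 without each mouse. The genotype by stage comparison gave 44 genes, 238 with DESeq2, 565 without a filter, 75 with the record's genotype and 10 to 108 without each mouse. The cause of these moves was not tested. Of 78 named genes that were called, all 78 were called with DESeq2, RLE size factors and no filter, 74 with limma-voom, 76 with the mouse block, 74 and 73 in the sets of 12 and 6 libraries, and 56 to 67 without each mouse.

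With genotype as the record gives it 81 of 87 named genes reversed. Most of these genes were called by mouse number, and the record swaps the genotype of 4 of the 6 mice. Their reversal follows largely from that swap and does not tell which reading is right. The mutant minus control log2 differences below 0 were Apoe -0.60, Aurka -0.34, Axl -1.13, B2m -0.55, Bst2 -1.10, C3 -1.44, C4b -1.33, Ccl2 -1.56, Ccl5 -1.51, Ccl7 -1.81, Cd36 -0.69, Cd69 -0.81, Cdc20 -1.28, Cdk1 -0.60, Cdkn1a -0.25, Ch25h -0.28, Cst7 -0.59, Ctss -0.36, Cxcl13 -0.85, Cyp51 -0.35, Egr1 -0.94, Etv4 -0.46, Flt1 -0.45, Fn1 -0.50, Gpi1 -0.21, Ier2 -0.75, Ifi213 -0.54, Ifi44 -0.67, Il1b -1.10, Isg15 -1.18, Itgax -0.55, Kdr -0.24, Ldha -0.55, Lmnb1 -0.36, Lpl -0.25, Ms4a4c -0.68, Ms4a6c -0.51, Myc -0.23, Neu1 -0.44, Oas1g -1.05, Oas2 -0.43, Oasl1 -1.37, Pkm -0.29, Plac8 -1.07, Plaur -0.58, Psap -0.45, Psmb9 -0.73, Siglec1 -0.58, Spock1 -0.99, Sqle -0.61, Srebf1 -0.27, Tap1 -1.06, Thbs1 -0.31, Tmem119 -0.23 and Usp18 -0.95. Those above 0 were Braf 0.28, Ccdc162 0.24, Cd79b 0.071, Cdkn1c 1.09, Cx3cr1 0.33, Duoxa1 1.16, Etv5 0.047, Fgf11 1.57, Gp9 0.39, Gpr165 1.51, Gpr34 0.58, Ighd 0.76, Jund 0.15, Lpcat3 0.16, Mylip 0.67, P2ry12 0.41, P2ry13 0.24, Sec16b 0.43, Sema4b 1.54, Srpk3 0.64, Svip 0.82, Tet1 0.54, Tlr5 0.44, Tmem71 1.04, Tnfrsf17 0.53 and Zfp385c 0.62. Etv5 reversed to 0.047 with limma-voom, to 0.048 with limma-voom and the block, and to 0.057 with only M2624 and M2629, and ranged from -0.26 to 0.36 without each mouse. Prkd1 reversed to 1.71 with limma-voom and 1.76 with the block, and ranged from -1.22 to 9.08 without each mouse. Differences under about 3 counts per library (0.150 to 0.198 CPM) were not detectable at this depth.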

Other observations

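Slc1a3 and the astrocyte list varied between mice of each genotype. Slc1a3, a glutamate transporter known from astrocytes, was at 186, 1001 and 942 CPM in the cortex-labelled libraries of controls M2618, M2629 and M2633 and at 939, 462 and 137 CPM in mutants M2617, M2621 and M2624. The astrocyte list summed to 226, 1448 and 1377 CPM and to 1197, 708 and 192 CPM in the brainstem-labelled libraries of the same mice. In each region M2618 and M2624 were the lowest mice, and each genotype held high and low mice.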
